A study of Mus musculus with 2 samples.

Results

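Cell junction genes were examined in dorsal skin of mice given the growth factor FGF18 or saline. The genes are 34 that encode parts of desmosomes, adherens junctions, tight junctions and gap junctions, taken by name, with earlier results of these data known. All 34 were measured among 22180 genes in all. By class 17 are desmosomal, 4 belong to adherens junctions, 9 to tight junctions and 4 to gap junctions. The same genes were also grouped, again with those results known, by where textbook knowledge places them, as 9 suprabasal (upper, differentiating layers of the epidermis), 6 basal (the lowest layer), 2 of the hair follicle and 17 of no single layer, called broad here.

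The FGF18 array holds skin RNA of BALB/cAJcl males aged 7 weeks, which belong to an albino strain. Their back hair was pulled out to start hair growth, 6 days later they received 100 µg of FGF18 in the peritoneum, dissolved in saline that contained 5 µg/µl of heparin, γ-rays at 6 Gy followed after 24 h, and skin was taken 4 h after irradiation. The saline array holds skin of the same strain, sex and age, and the labels say of its treatment only that it was a saline control, so hair removal, heparin and irradiation in that group are not stated. Each group is 1 array with no replicate, and the number of mice behind it is not given. No test, standard deviation or p-value can be had, and each difference describes these 2 arrays, in which agent, stage of hair growth, heparin, irradiation and individual animal cannot be told apart.

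Desmosomes are spot welds that tie the keratin filaments of neighbouring keratinocytes together. Their cadherins, the desmogleins and desmocollins, meet across the gap between cells, and plakoglobin, plakophilins and desmoplakin link them to the keratins. As keratinocytes leave the basal layer they are known to exchange one set of desmosomal cadherins for another, and the follicle has a set of its own. Adherens junctions join actin filaments in the same manner through classical cadherins and catenins, tight junctions seal the space between cells of the granular layer, and gap junctions are channels of connexins that pass small molecules from cell to cell.

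Desmosomal genes of the upper epidermis were lower on the FGF18 array. Of the 34 genes 7 were lower by at least 1.5-fold, all of them desmosomal and 6 of them suprabasal. Of the others only Dsg4 and Cdh3, grouped here as follicle genes, were higher by at least 1.5-fold, and Cdh3, which basal keratinocytes also express, missed that mark with a pseudocount of 16 and after subtraction of the intensity trend. Each difference is the FGF18 value minus the saline value, both as log2(intensity + 1), and a fold is that difference turned back to a linear ratio, which understates the change of dim genes. The 7 lower genes are 20.6% of the members, where 4.15% of all genes were as much lower (4.63% among the 11090 genes at or above the median level). The 2 higher genes are 5.88% of the members, against 2.61% of all genes (3.64% of the brighter ones). At 2-fold, 3 members (8.82%) were lower, against 1.06% of all genes and 1.65% of the brighter ones. No member was 2-fold higher, which 0.257% of all genes and 0.379% of the brighter ones were.

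**Figure D1:**
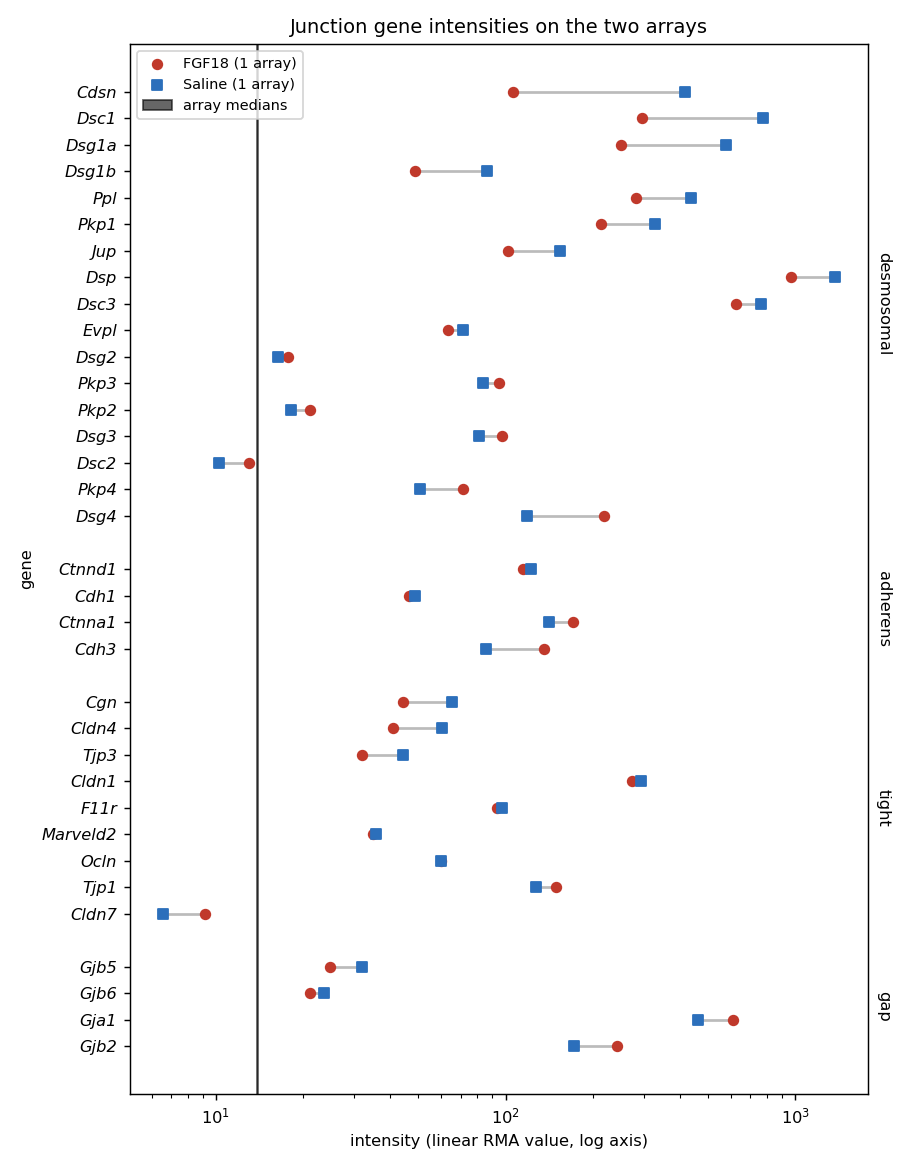
Intensity of each of the 34 junction genes on the FGF18 array (red circles) and the saline array (blue squares), on a log axis, by class and within a class from the lowest to the highest difference. Dsc2 and Cldn7 lie left of the black line at the array medians (13.8 for FGF18 and 14 for saline), and Cdsn has the widest gap, at 106 on the FGF18 array and 417 on the saline array.

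Start regions are shown for the members with the 3 lowest differences (Cdsn, Jup and Cgn) and the highest one (Gjb2) among those that have a promoter entry and lay above the array median. The sequences are RefSeq's, build GRCm38.p6, and run 5′ to 3′ from 250 bases before to 50 after an annotated start. Promoters of 18 of the 34 genes matched by symbol. Of the members past 1.5-fold only Cdsn and Jup matched, while Dsg1a, Dsg1b, Dsc1, Pkp1, Ppl, Dsg4 and Cdh3 did not. Capitals mark matches to 4 letter motifs searched on both strands: TGANTCA, named for AP-1, GCCNNNGGC, named for AP-2, CAGGTG, an E-box read by Snail factors in the gene of E-cadherin, and AACCNGTT, named for grainyhead factors. No matches overlapped in the 5 windows. Cdsn has 2 annotated starts, at chr17:35542851-35543150 and chr17:35551878-35552177, both on the + strand. Jup lies at chr11:100397741-100398040, Cgn at chr3:94786433-94786732 and Gjb2 at chr14:57104653-57104952, all on the - strand.
Cdsn, first start: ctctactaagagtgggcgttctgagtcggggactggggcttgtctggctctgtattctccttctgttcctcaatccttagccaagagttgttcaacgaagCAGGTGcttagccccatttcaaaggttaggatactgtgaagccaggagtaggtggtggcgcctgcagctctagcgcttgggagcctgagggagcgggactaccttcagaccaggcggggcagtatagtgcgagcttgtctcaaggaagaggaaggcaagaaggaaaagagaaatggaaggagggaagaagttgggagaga
Cdsn, second start: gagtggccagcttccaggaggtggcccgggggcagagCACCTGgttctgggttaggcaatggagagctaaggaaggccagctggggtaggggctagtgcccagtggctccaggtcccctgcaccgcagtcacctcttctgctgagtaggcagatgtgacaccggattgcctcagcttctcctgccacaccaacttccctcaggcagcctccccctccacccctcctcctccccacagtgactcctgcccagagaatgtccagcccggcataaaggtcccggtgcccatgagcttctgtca
Jup: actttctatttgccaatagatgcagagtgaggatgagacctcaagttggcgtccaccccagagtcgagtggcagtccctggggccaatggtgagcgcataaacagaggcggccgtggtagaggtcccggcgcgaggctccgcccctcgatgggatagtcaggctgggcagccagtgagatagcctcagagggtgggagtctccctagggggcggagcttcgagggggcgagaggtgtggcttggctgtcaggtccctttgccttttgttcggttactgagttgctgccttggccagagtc
Cgn: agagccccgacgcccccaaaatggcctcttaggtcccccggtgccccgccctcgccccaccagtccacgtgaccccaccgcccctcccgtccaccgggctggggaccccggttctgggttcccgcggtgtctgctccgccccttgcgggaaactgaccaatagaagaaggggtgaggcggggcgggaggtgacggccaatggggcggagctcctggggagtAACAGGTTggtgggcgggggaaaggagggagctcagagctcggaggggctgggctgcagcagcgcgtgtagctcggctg
Gjb2: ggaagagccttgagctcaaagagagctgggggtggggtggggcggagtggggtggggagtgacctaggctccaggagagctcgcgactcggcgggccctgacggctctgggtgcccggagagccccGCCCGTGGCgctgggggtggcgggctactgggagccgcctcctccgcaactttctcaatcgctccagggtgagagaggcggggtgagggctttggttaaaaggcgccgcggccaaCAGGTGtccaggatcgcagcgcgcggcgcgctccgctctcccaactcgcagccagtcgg

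The 2 Cdsn windows each hold 1 E-box, Cgn holds a grainyhead match (AACAGGTT) and Gjb2 holds an AP-2 match (GCCCGTGGC) and an E-box, while none of the 4 motifs is in the Jup window. Across members, 11 of 18 genes held the E-box in at least 1 start window (61.1%), against 22.6% of the 27025 genes with a promoter entry. Counted by window it was 60.0% of 25 member windows and 20.2% of 32851 windows. The AP-2 letters were in 8 of 18 genes (44.4%, against 18.5% of all), the AP-1 letters in 3 (Cldn4, F11r and Gja1, 16.7% against 8.97%) and the grainyhead letters in 2 (Cgn and Gjb6, 11.1% against 2.35%). By window these were 36.0% of member windows against 16.6% of all for AP-2, 12% against 7.81% for AP-1 and 8% against 2.09% for grainyhead. The E-box was in genes of both directions, such as Cdsn (lower) and Gjb2 (higher, but by less than 1.5-fold). These shares leave out most members past 1.5-fold, which had no matched promoter. All entries include non-coding genes, a match is no evidence of binding, and base composition was not matched.

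Cdsn, the gene of corneodesmosin, a secreted glycoprotein that sits on desmosomes of the cornified layer, differed most. It read 106 on the FGF18 array and 417 on the saline array, a difference of -1.96, or 3.89-fold lower. Among all genes only 35 had a lower difference. Dsc1, the desmocollin of the upper layers, read 297 on the FGF18 array and 777 on the saline array, a difference of -1.38, or 2.61-fold lower. Dsg1a, a desmoglein 1 gene and the partner of Dsc1 in the upper layers, read 251 on the FGF18 array and 575 on the saline array, 2.29-fold lower at -1.19. These 3 genes were the members at least 2-fold lower, and all are bright on both arrays. Dsg1b, a second copy of desmoglein 1 in the mouse, read 48.8 on the FGF18 array and 86.2 on the saline array (-0.81, 1.75-fold lower). The desmoglein 1 copies are close relatives, so their differences count as related evidence and not as separate observations, and signal shared between their probes was not tested.

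The suprabasal genes of the desmosomal plaque were lower by smaller amounts. Ppl, the gene of periplakin, which links desmosomes and the cornified envelope to keratin, read 282 on the FGF18 array and 437 on the saline array (-0.63, 1.55-fold lower). Its partner envoplakin, Evpl, read 63.4 on the FGF18 array and 71.0 on the saline array, a difference of -0.16. Pkp1, a plakophilin that strengthens desmosomes of the upper layers, read 214 on the FGF18 array and 328 on the saline array (-0.61, 1.53-fold lower). The 7 suprabasal desmosomal genes were thus all lower, with a median difference of -0.81, and 6 of them passed 1.5-fold. The 10 other desmosomal genes had a median of 0.19, with 7 higher and 3 lower. The medians over all genes and over the brighter genes were 0.00 and 0.07. Of all 22180 genes 10970 were higher and 10094 lower. Among the 11090 brighter genes 6587 were higher and 4209 lower. Counts of genes by sign, here and below, are to be read beside these.

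**Figure D2:**
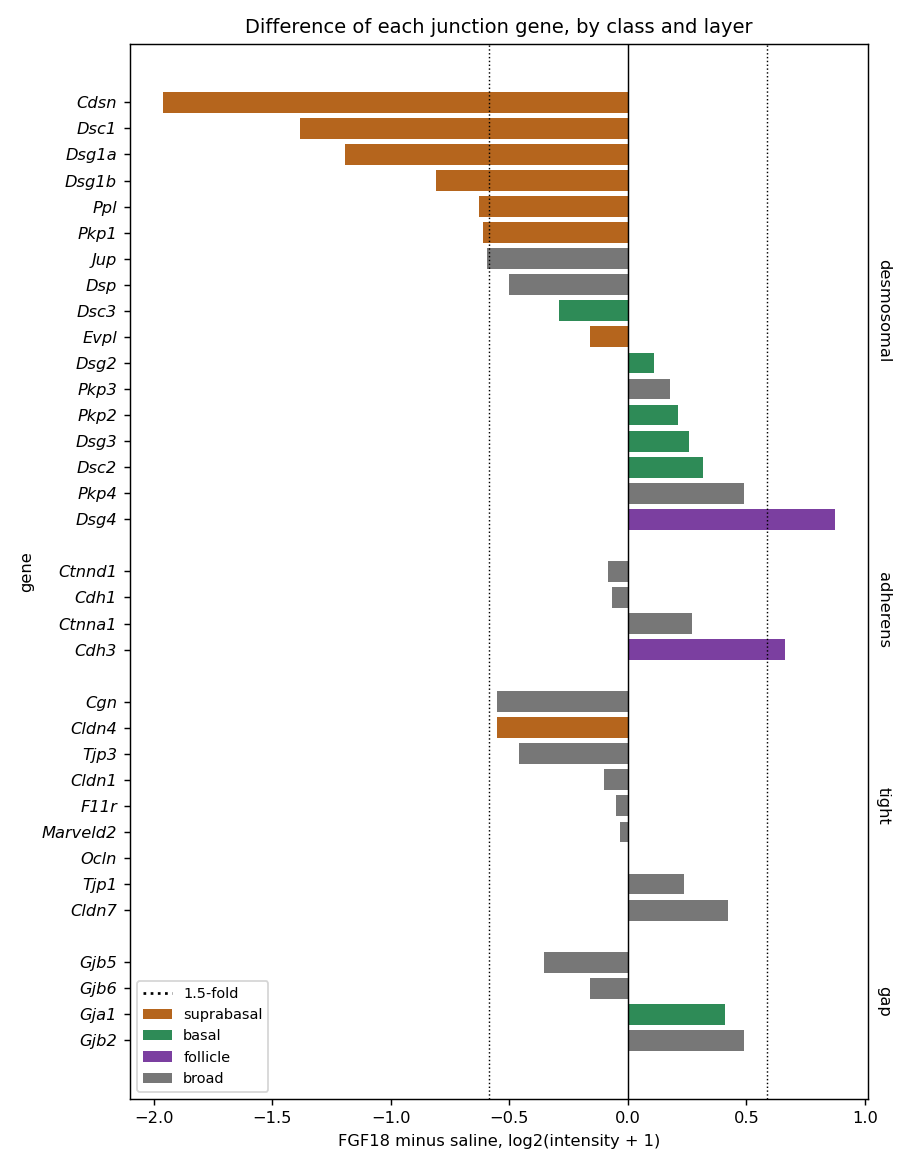
Difference of each gene (FGF18 minus saline, in log2(intensity + 1)), by class, with bars coloured by layer and dotted lines at 1.5-fold. The bars past the left line are 6 suprabasal genes and Jup, those past the right line are Dsg4 at 0.87 and Cdh3 at 0.66, and Ocln has no bar because both readings were 59.7.

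Plaque genes of no single layer differed in both directions. Jup, the gene of plakoglobin, which serves desmosomes and adherens junctions, read 102 on the FGF18 array and 155 on the saline array (-0.59, 1.51-fold lower). Dsp, the gene of desmoplakin, the main link to keratin, read 968 on the FGF18 array and 1372 on the saline array, a difference of -0.50. With a pseudocount of 16 in place of 1, Jup and Pkp1 were 1.44-fold and 1.49-fold lower and so missed the 1.5-fold mark, as Dsp did in either case. A pair of relatives of Pkp1 lay on the other side of 0. Pkp3, found through all layers, read 94.8 on the FGF18 array and 83.7 on the saline array (0.18), and Pkp4, which is also found at adherens junctions, read 71.5 on the FGF18 array and 50.6 on the saline array (0.49).

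Basal desmosomal genes showed small differences in both directions. Dsg3, the desmoglein of the lower layers, read 97.0 on the FGF18 array and 80.9 on the saline array (0.26). Dsc3, its desmocollin counterpart, read 623 on the FGF18 array and 763 on the saline array (-0.29), and was the single basal member on the lower side. Pkp2, a plakophilin of lower layers, read 21.1 on the FGF18 array and 18.1 on the saline array (0.21). A pair of members was hard to read. Dsc2 read 13.0 on the FGF18 array and 10.3 on the saline array, below the median of both arrays, so it is not shown above background and has no fold. Dsg2 was measured by 2 transcript clusters that disagreed in sign, the brighter reading 31.8 on the FGF18 array and 24.8 on the saline array (0.35) and the dimmer 9.78 on the FGF18 array and 10.7 on the saline array (-0.12). The average used for Dsg2 was 0.11. With Gja1, a gap junction gene, the 6 basal members had a median of 0.24, which was 0.13 with a pseudocount of 16 and 0.26 with Cdh3 counted among them.

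The genes grouped as follicle genes were the highest members. Dsg4, the desmoglein of the growing hair shaft, whose loss gives the lanceolate hair of mutant mice, read 219 on the FGF18 array and 119 on the saline array. The difference was 0.87, or 1.83-fold higher, and 110 of all genes had a higher one. Cdh3, the gene of P-cadherin, the classical cadherin of basal keratinocytes and hair matrix, read 136 on the FGF18 array and 85.5 on the saline array (0.66, 1.58-fold higher). With a pseudocount of 16 the fold of Cdh3 was 1.497, and after the intensity trend was subtracted its difference was 0.56, both under the mark. Dsg4 passed it under both.

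Isoforms were also compared by their ratio within an array, which a uniform shift of all differences does not alter. The ratio of Dsg1a to Dsg3 was 2.74-fold lower on the FGF18 array, and that of Dsc1 to Dsc3 was 2.13-fold lower. The ratio of Dsg4 to Dsg1a was 4.19-fold higher and that of Dsg4 to Dsg3 1.53-fold higher. The ratio of Pkp1 to Pkp3 was 1.73-fold lower. Such ratios show unequal change between 2 genes and do not say which of the pair changed.

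The desmosomal cadherin genes stand in 1 run on chromosome 18, in the order Dsc3, Dsc2, Dsc1, Dsg1c, Dsg1a, Dsg1b, Dsg4, Dsg3 and Dsg2 by the GRCm38.p6 annotation, with no other protein-coding gene between them. The differences did not follow the run as a whole. Dsc1, Dsg1a and Dsg1b were lower. Dsg1c, the third copy of desmoglein 1 and not one of the 34 members, has no fold, as it read 4.78 on the FGF18 array, below that array's median, and 14.7 on the saline array. The gene after Dsg1b, Dsg4, was higher, and the genes at both ends of the run differed by at most 0.32 either way. Among the other neighbouring members, Cdh3 and Cdh1 stood at 0.66 and -0.07, Gjb2 and Gjb6 at 0.49 and -0.16, and Ocln and Marveld2 at 0.00 and -0.03.

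**Figure D3:**
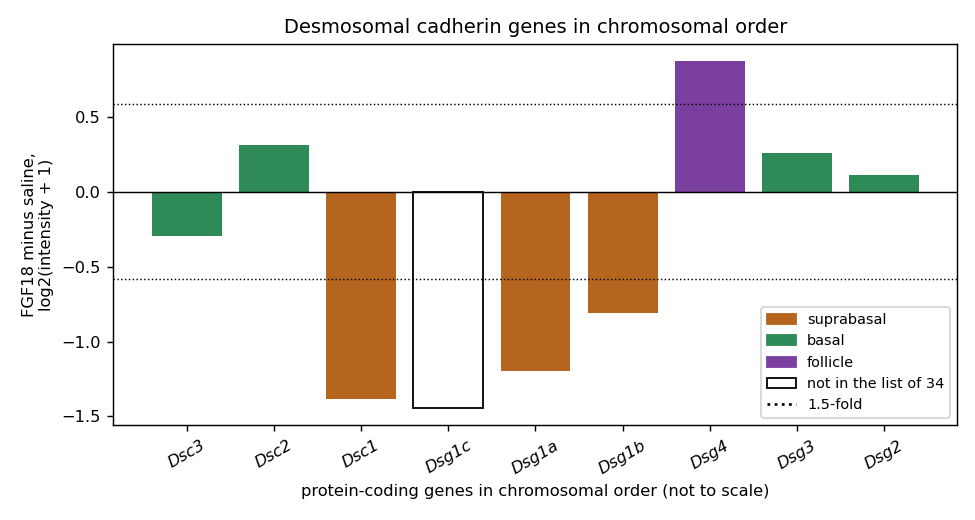
Difference (FGF18 minus saline, in log2(intensity + 1)) of the 9 desmosomal cadherin genes of chromosome 18 in their chromosomal order, coloured by layer, with Dsg1c, which is outside the list, as an open bar that has no fold because the gene lay below the FGF18 array's median. The bars of Dsc1, Dsg1a and Dsg1b reach below the 1.5-fold line and Dsg4 passes it upward at 0.87.

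Adherens junction genes other than Cdh3 differed little. Cdh1, the gene of E-cadherin, had 2 clusters, of which the brighter read 173 on the FGF18 array and 199.7 on the saline array (-0.21) and the dimmer 11.9 on the FGF18 array and 11.2 on the saline array (0.07). Averaged, Cdh1 stood at -0.07. By the brighter cluster the ratio of Cdh3 to its neighbour Cdh1 was 1.83-fold higher on the FGF18 array. Ctnna1, the α-catenin that ties the complex to actin, read 170.3 on the FGF18 array and 141 on the saline array (0.27). Ctnnd1, a catenin that holds cadherins at the membrane, read 115 on the FGF18 array and 122 on the saline array (-0.08). The median of the 4 genes was 0.10, and it was -0.00056 after the intensity trend was subtracted.

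No tight junction gene passed 1.5-fold. Of all genes, 4.15% were lower and 2.61% higher by that much, so for 9 genes a count of 0 lies near those shares. Cgn, the gene of cingulin, which connects tight junctions to the actomyosin belt, read 44.2 on the FGF18 array and 65.2 on the saline array. Cldn4, a claudin of the differentiated layers, read 40.9 on the FGF18 array and 60.4 on the saline array. Both differences were -0.55, or 1.46-fold lower. Tjp3, a zonula occludens scaffold gene, read 32.0 on the FGF18 array and 44.3 on the saline array (-0.46). These 3 are the lower end of the class, and Cgn and Cldn4 passed 1.5-fold once the intensity trend was subtracted, at -0.65 each.

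The core seal and its adaptors were close to equal. Cldn1, the claudin without which mouse skin loses water at birth, read 273 on the FGF18 array and 293 on the saline array (-0.10). Ocln, the gene of occludin, read 59.7 on both arrays, one of 2026 transcript clusters of 41345 with identical values. Its neighbour Marveld2, the gene of tricellulin, which seals the corners between cells, read 34.8 on the FGF18 array and 35.7 on the saline array (-0.03). The pair of neighbours thus showed next to no difference. F11r, the gene of a junctional adhesion molecule, read 93.4 on the FGF18 array and 96.8 on the saline array (-0.05). Tjp1, the scaffold that anchors claudins and occludin, read 149.9 on the FGF18 array and 127 on the saline array (0.24). Cldn7 read 9.17 on the FGF18 array and 6.58 on the saline array, below the median of both, and has no fold. The class median was -0.05 over 9 genes.

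The 4 gap junction genes split evenly. Gjb2, a connexin gene whose human counterpart underlies hereditary deafness with skin thickening, read 242 on the FGF18 array and 172 on the saline array (0.49, 1.41-fold higher). Gja1, the most widely used connexin gene and one of lower epidermal layers, read 612 on the FGF18 array and 461 on the saline array (0.41, 1.33-fold higher). Gjb5, a connexin gene of stratified epithelia, read 24.8 on the FGF18 array and 31.9 on the saline array (-0.35). Gjb6, the neighbour of Gjb2, mutated in human hidrotic ectodermal dysplasia, read 21.1 on the FGF18 array and 23.7 on the saline array (-0.16). None of the 4 passed 1.5-fold, which is near the shares of all genes (4.15% lower and 2.61% higher). The ratio of Gjb2 to Gjb6 was 1.57-fold higher on the FGF18 array.

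By layer, the 9 suprabasal members had a median of -0.63, with 8 lower and 1 equal, and the 17 broad members had one of -0.07, with 11 lower and 6 higher. Desmosomal genes as a class had a median of -0.29, which was -0.23 when Dsg1a and Dsg1b were counted as 1 gene. Between transcript clusters of the same gene, over 319 symbols with at least 2 clusters above the median level, the standard deviation of a difference was 0.24. This spread covers probes and not animals.

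**Figure D4:**
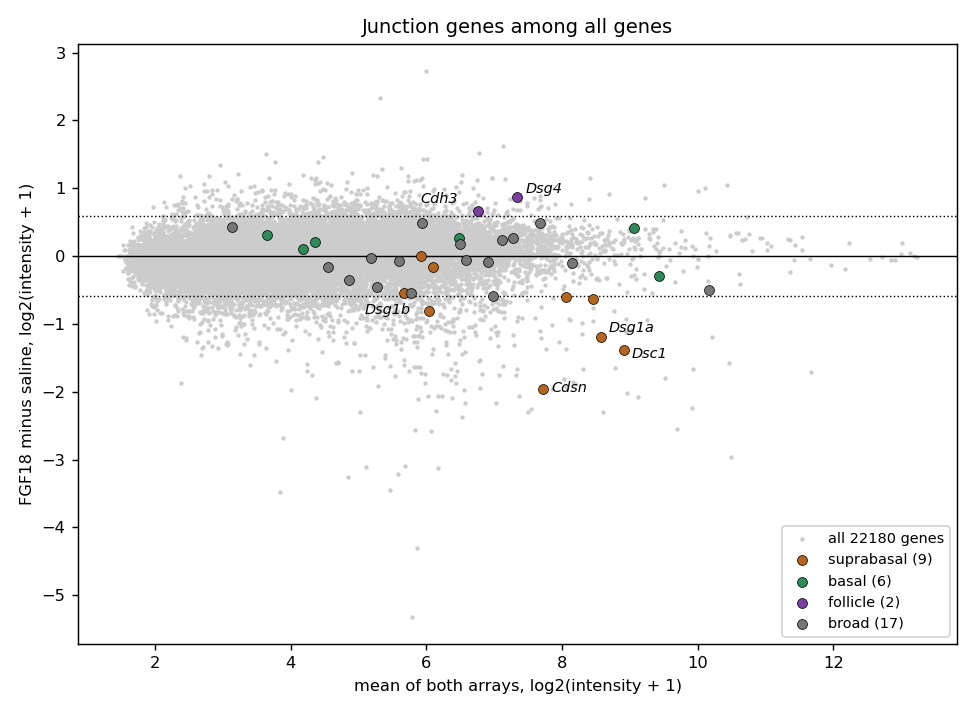
Difference (FGF18 minus saline) against the mean of both arrays, both on the log2(intensity + 1) scale, for all 22180 genes (grey) and the 34 junction genes coloured by layer. Cdsn, Dsc1 and Dsg1a are the lowest members at -1.96, -1.38 and -1.19, and 35, 98 and 147 of all genes had a lower difference.

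Other genes of the same junctions were taken from lists of names. Of 3 further desmosome genes Dsg1c has no fold, as it lay below the FGF18 array's median. Perp, which is needed for desmosome assembly, read 710 on the FGF18 array and 921 on the saline array (-0.38), and Kazn stood at 0.13. None of 16 further adherens junction genes passed 1.5-fold, and their median was 0.05 with 11 higher and 5 lower. The 47 further tight junction genes include 2 claudin domain genes and a pseudogene by its name prefix. Of these 47, 22 lay below the median on both arrays. Among those above the median of both arrays, 2 were higher by 1.5-fold and none lower. At any level, 3 of the 47 (6.38%) were higher and 1 (2.13%) lower by that much, against 2.61% and 4.15% of all genes. The same shares of all genes are to be read beside the counts of the other lists here. The median of the 47 was 0.00. The paralog of cingulin, Cgnl1, read 50.5 on the FGF18 array and 30.8 on the saline array (1.62-fold higher), the opposite side from Cgn. The scaffold gene Magi3 read 55.3 on the FGF18 array and 33.0 on the saline array (1.66-fold higher). Cldn23 read 13.1 on the FGF18 array, under that array's median, and 20.2 on the saline array, and has no fold. A further list of 15 gap junction genes held pannexin genes beside connexin genes. Of these 15, 11 lay below the median on both arrays and none passed 1.5-fold (median -0.18). None of 6 hemidesmosome genes, which bind basal cells to the basement membrane, passed it either, and their median was 0.12, with Col17a1 at 0.39 and Itgb4 at 0.37.

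Markers of the layers also differed between the arrays. All 12 markers of differentiated keratinocytes were lower, each by at least 1.5-fold, with a median of -1.87 and a summed intensity of 5677 on the FGF18 array and 20935 on the saline array. The lower suprabasal junction genes thus stood beside a larger median difference in these markers. The lowest were Krt1 (512 on the FGF18 array and 4003 on the saline array), Calm4 at -2.30 and Casp14 at -2.26. Not every marker differed more, as Lor at -0.95 differed less than Cdsn, Dsc1 and Dsg1a. In whole skin, fewer cells of a layer and less RNA per cell cannot be told apart. Of 11 general epithelial markers 6 were higher and 5 lower. Their median was 0.01, with summed intensities of 1489 on the FGF18 array and 1782 on the saline array, and Krt14 alone passed 1.5-fold (-0.81). The 5 basal keratinocyte markers, 3 of them hemidesmosome genes as well, had a median of 0.37 and sums of 1290 on the FGF18 array and 1326 on the saline array. Of these 5, 4 were higher and 1 was lower, which was again Krt14 (-0.81), a marker in both lists. Krt5, also in the epithelial and the basal list, was not measured. Beside Dsg4 and Cdh3, 9 of 10 inner root sheath markers were higher, with sums of 6278 on the FGF18 array and 3186 on the saline array, and 10 of 11 hair shaft keratins were higher, with sums of 1117 on the FGF18 array and 739.9 on the saline array. The medians of these follicle lists were 0.96 and 0.61, with Krt28 (1.16), Krt72 (1.14) and Krt27 (1.06) highest in the first and Krt31 (1.22), Krt82 (1.02) and Krt36 (0.85) in the second. The part of layer or follicle content in the junction differences was not tested.

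**Figure D5:**
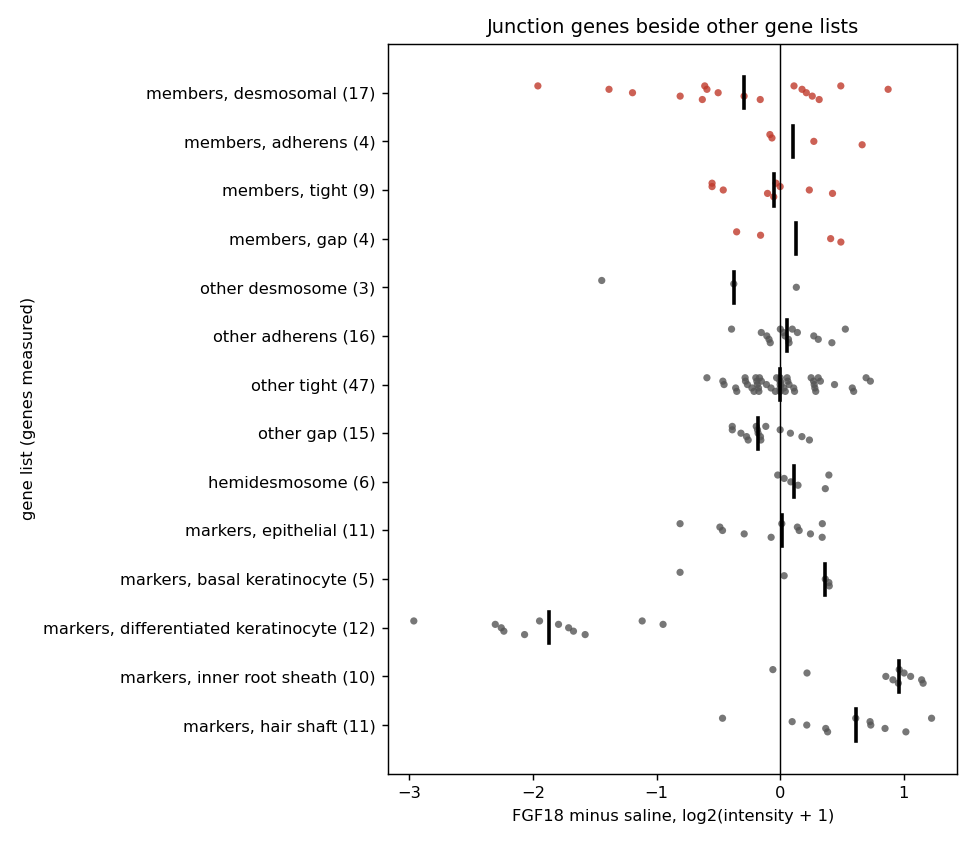
Difference (FGF18 minus saline, in log2(intensity + 1)) of every measured gene in the 4 junction classes (red), in the lists of other junction genes and in marker lists (grey), with black bars at list medians and the number of genes in brackets. Differentiated keratinocyte markers lie farthest left (median -1.87) and inner root sheath markers farthest right (0.96), with the desmosomal members spread from -1.96 to 0.87.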

How the data were processed

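Skin RNA was hybridised to 2 arrays (Affymetrix Mouse Gene 2.0 ST), 1 per group by the sample labels. The authors processed them with RMA in Affymetrix Expression Console, per the submitters' processing notes, which give no versions. The deposited intensities are linear, as judged from their values (1.44 to 11532 for FGF18, 1.39 to 11488 for saline). Arrays have no read depth, and 1 per group limits precision.

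The platform annotation gave 1 symbol to 23521 of 41345 transcript clusters. These were used, and clusters of a symbol were averaged as log2(intensity + 1), giving 22180 genes. Of the members 32 had 1 cluster and 2 had 2. None of the members was in a cluster with several symbols. A gene below its array's median has no fold. The members, their groups and all lists were chosen with earlier results of these data known. All members were named, and from other lists at most the 3 highest and 3 lowest genes past 1.5-fold and above the median on either array. Perp, Kazn, Col17a1, Itgb4, Pecam1, Kdr, Esam, Cldn5, Adgre1 and the promoters shown were chosen after values were seen.

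Alternatives were a pseudocount of 16 or none, brighter members only, the brightest cluster, clusters with several symbols, centring, a subtracted intensity trend (lowess, span 0.3, statsmodels 0.14.6), and a 2-fold mark. Gene-level steps were tested on simulated data, which checks the calculation and not the spread between animals. Protein comparisons were not made here.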

Additional observations from a re-analysis of the deposited data

How the results depend on the processing

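With 1 array per group, no library can be left out. No paired analysis was possible because each group has 1 sample and no test was made. A median is counted as moved beyond 0.1, a single gene beyond the spread between clusters of a gene (0.24), a count beyond 1.5 times. The brightest cluster and no pseudocount moved no median, count or member difference by that much. Taking the brightest cluster could alter only Dsg2 and Cdh1, as the other 32 members have 1 cluster. Centring and clusters with several symbols could change no value, since the median difference of all genes was 0 and no such cluster names a member. Counting Dsg1a and Dsg1b as 1 gene or Cdh3 as basal, choices made after the data were seen, moved no median or count by that much.

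Subtracting the intensity trend, which ran from -0.05 to 0.12 over the members, gave medians of -0.18 for all members, -0.41 for desmosomal, -0.16 for tight junction and -0.74 for suprabasal genes, and turned the adherens median to -0.00056. The median of the 2 follicle genes went from 0.77 to 0.66. The same subtraction gave 10 lower members, the 7 of the main count with Cgn, Cldn4 and Dsp, and 1 higher one, Dsg4. With a pseudocount of 16 there were 5 lower members, all among the 7, and 1 higher, and the basal median was 0.13. At 2-fold there were 3 lower and 0 higher members, as fewer genes reach a higher mark. With dimmer members left out, the desmosomal median was -0.40. Of 136 values of single members under the 4 other alternatives for values, 135 moved by less than 0.24. The exception was Cldn7, a dim gene, at 0.16 with a pseudocount of 16. Among the 136 are the brightest-cluster values of the 32 members with 1 cluster, which could not change. Signal near the array median limits what can be read for Dsc2, Cldn7 and the dimmer clusters of Dsg2 and Cdh1.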

Other observations

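Of the junction genes of blood vessels named here, only Cdh5 and Pecam1 lay above the array medians, and they differed in sign. Cdh5, the cadherin of endothelial adherens junctions, read 19.2 on the FGF18 array and 30.9 on the saline array (-0.66, 1.58-fold lower), while Pecam1, an adhesion molecule of the same cells, read 23.8 on the FGF18 array and 20.5 on the saline array (0.21). Cldn5 and Esam, of endothelial tight junctions, lay below the median of both arrays. The 7 endothelial markers had a median of 0.00, with 3 higher, 3 lower and 1 equal. However, 4 of the 7 lay below the median on both arrays, among them Cldn5, the equal one. Those above it were Pecam1, on the higher side, and Cdh5 and Kdr (-0.43), on the lower side.

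Markers of other skin cells that hold junctions were read beside these. The 6 melanocyte markers (median 0.46) and the 6 macrophage markers (median 0.37) were all on the higher side. Among the melanocyte markers Mlana stood at 0.81 and Tyr at 0.69. The macrophage marker with the highest difference, Adgre1, lay below the median of both arrays. With a pseudocount of 16 the macrophage median was 0.23. Fibroblast markers had a median of -0.33 over 7 genes, with Lum at -0.95 and Dpt at -0.69. Of these 7, 5 were lower and 2 higher, up to 0.42. Skeletal muscle markers had a median of -0.28 over 8, with Casq1 at -1.14 and Myh2 at -0.68. Among these 8, 6 were lower and 2 higher, up to 0.36. Adipocyte markers stood at -0.09 over 7 genes with a mean of 0.13 and Plin4 at 1.02, T cell markers at -0.13 over 3 and Schwann cell markers at -0.03 over 2.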
